A study of Homo sapiens with 8 samples.

Results

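The histone genes of the HIST1, HIST2 and HIST3 clusters were followed in single HMLE cells. A gene was taken as a member when its symbol started with HIST1H, HIST2H or HIST3H and it had at least 20 unique molecular identifiers (UMIs, 1 per captured RNA molecule) summed over the 4 mRNA libraries. Of 36601 genes in the count matrices, 70 carried such a symbol and 63 reached the minimum. The 3 members nearest above it were HIST2H4B with 29 UMIs, HIST1H1T with 51 and HIST2H4A with 95. Below it were HIST1H2BA with 7, HIST2H3C with 6, HIST2H2AA3 with 5, HIST2H3A with 3, HIST3H3 and HIST1H4G with 1 each, and HIST1H4K with 0.

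HMLE is a line of human mammary epithelial cells immortalised with telomerase and a viral T antigen, which acts on cell cycle control. The study induced epithelial-to-mesenchymal transition with TGF-β, with and without pyridostatin, a ligand of G-quadruplex DNA, and tagged 12 samples with short barcoded oligonucleotides, SBO01 to SBO12, before pooling them. Each of the 12 barcode populations is therefore HMLE under a condition that the labels do not assign to its barcode, so the populations are given by value, with no comparison of treated against untreated cells. The first pool, SBO01 to SBO06, was loaded in libraries 1 and 2, and the other, SBO07 to SBO12, in libraries 3 and 4.

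Replication histones are made in bulk while DNA is copied, because new chromatin needs new histone proteins. H2A, H2B, H3 and H4 form the nucleosome core and H1 binds the linker DNA between nucleosomes. Their genes lie in clusters without introns, are transcribed at nuclear histone locus bodies under NPAT, and yield mRNAs that classically end in a stem-loop bound by SLBP in place of a poly(A) tail. Some of these genes can also give a polyadenylated mRNA that outlasts S phase. The labels give the captured molecule as polyA RNA, and how mRNA without a tail entered the libraries was not tested.

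The 4 libraries held 139331790 to 179421284 gene UMIs, and 22147 cells had at least 1000 genes and at most 15% mitochondrial UMIs. A single sample barcode was assigned to 11072 of them, and 10233 of these (92.4%) had the 10000 UMIs needed to score the cell cycle. Among the kept cells, 386 cell barcodes occurred in 2 or more libraries. Levels are given as CPM, the UMIs of a gene per 1000000 gene UMIs. In the libraries 8 of 8 epithelial markers were above 1 CPM, against 2 of 8 leukocyte markers (CD14 and CD68) and 0 of 7 endothelial markers, with CD3E, MS4A1 and NKG7 at 0. SBO05 stood apart from the other 11 populations. Its summed epithelial markers were at 1778 CPM, against 10918 to 12493 CPM elsewhere, and its summed mesenchymal markers were at 5576 CPM, against 1066 to 4283 CPM. Results that rest on the cells of SBO05 are given with and without them.

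The members together held 1035566 UMIs, or 1634 CPM. Their level was 1765 CPM in library 1, 1776 CPM in library 2, 1504 CPM in library 3 and 1490 CPM in library 4. HIST1H4C, a gene for the nucleosome core histone H4, held 492236 UMIs, 47.5% of the members' total. The 12 H4 genes held 48.7% of the members' UMIs, the 6 H1 genes 26.7%, the 16 H2A genes 11.7%, the 12 H3 genes 6.94% and the 17 H2B genes 5.92%. After HIST1H4C came 5 linker histone genes, HIST1H1E with 76228 UMIs, HIST1H1D with 63274, HIST1H1A with 57697, HIST1H1B with 42276 and HIST1H1C with 37243. These are counts of molecules and are not scaled by gene length. H1 genes summed to 483 and 577 CPM in libraries 1 and 2 and to 362 and 335 CPM in libraries 3 and 4. H4 genes, at 729 to 848 CPM, did not separate the library pairs when all cells were summed, SBO05 included. Among cells with a single sample barcode, HIST1H4C stood at 1181 CPM in SBO05 and at 549 to 722 CPM elsewhere in the first pool. In SBO07 to SBO12 it stood at 719 to 912 CPM. By cluster, the 52 HIST1 members held 94.2% of the UMIs and lay on chromosome 6 between 25726063 and 27893891 (RefSeq, GRCh38.p14). The 9 HIST2 members lay on chromosome 1 between 143902386 and 149887965, and the 2 HIST3 members on chromosome 1 between 228457364 and 228458558.

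Each scored cell was thinned to 10000 UMIs and given an S score over 43 genes and a G2/M score over 54 genes, neither list holding a member. Cells with both scores at or below 0 formed the low range (2122 cells), and in the other cells the higher score set the S range (4262 cells) or the G2/M range (3849 cells). These are ranges of a score and not cell types, and 3677 cells (35.9%) lay within 0.1 of a cut. Unthinned UMIs were then summed per library and range and tested with edgeR over 15707 genes, with the library as a block. The 4 libraries are 2 pools loaded in 2 libraries each, and nothing says that the loads came from separate cultures, so the p-values measure the spread between these libraries, which may be technical.

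All members together stood at 1232, 1277, 1102 and 1233 CPM in the low range of libraries 1 to 4 and at 2414, 2359, 2060 and 2172 CPM in the S range. The S range was the higher of the pair in every library and the groups did not overlap. In the S range 39 of the 58 members tested were higher and 8 were lower than in the low range, and 11 did not pass the test. Over all genes tested, percent_called was 15.5 for higher and 14.4 for lower. Without the cells of SBO05, 32 members were higher and 7 lower. The median log2 fold change was 0.71 over the members tested and 0.0054 over all genes tested. The other 5 members, HIST1H1T, HIST1H2AA, HIST2H2AA4, HIST2H4A and HIST2H4B, had too few UMIs to be tested.

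**Figure D1:**
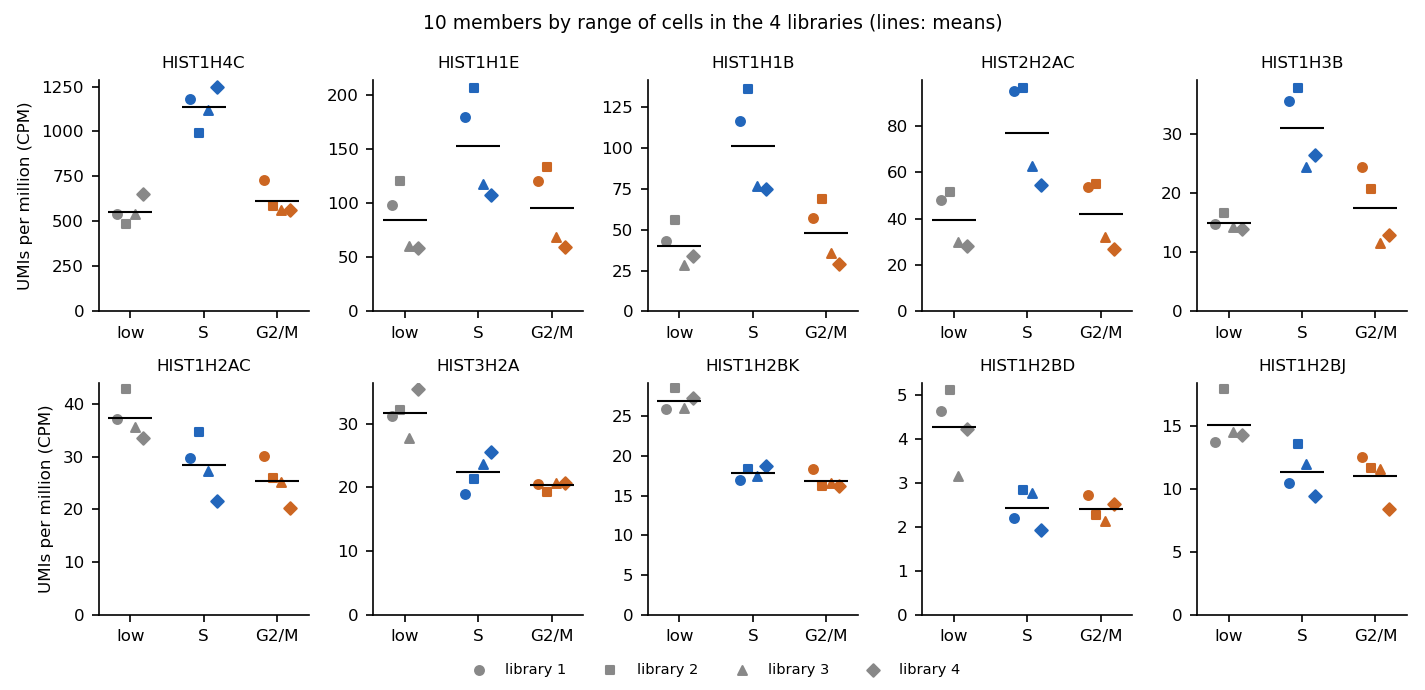
Level of members in the low, S and G2/M ranges (CPM, axes from 0), with 1 point per library and a line at the mean. HIST1H4C lies at 485 to 651 CPM in the low range and at 991 to 1250 CPM in the S range, whereas HIST1H2BK lies at 25.9 to 28.5 CPM in the low range and at 17.0 to 18.8 CPM in the S range.

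Among the H4 genes, 6 of 10 tested were higher in the S range and 1 was lower. HIST1H4C stood at 541, 485, 543 and 651 CPM in the low range of libraries 1 to 4 and at 1180, 991, 1120 and 1250 CPM in the S range. No S-range value of HIST1H4C came down to the low-range values. Its log2 fold change was 0.98 ± 0.06 (SE, adjusted p = 3.51e-10), a level 1.98 times as high. HIST1H4L had the largest fold change of all members tested, 1.59 (adjusted p = 0.00565), but only 12 of the 2122 low-range cells held a UMI of it and its S-range level was 0.392 to 0.684 CPM. It passed the filter on low counts through the S range. Of the 10 alternative settings in which HIST1H4L was tested, its call was lost in 2, without library 1 and with another rule for assigning barcodes. HIST1H4A, another H4 gene of few UMIs, had a log2 fold change of 1.17 that did not pass the test (adjusted p = 0.089).

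The 5 H1 genes tested were higher in the S range. HIST1H1B stood at 43.1, 55.7, 28.3 and 33.8 CPM in the low range and at 117, 136, 76.8 and 74.8 CPM in the S range, so libraries 3 and 4 were lower in each range but every library rose. This made a log2 fold change of 1.29 ± 0.06 (SE, adjusted p = 9.4e-12). HIST1H1A stood at 55.5, 68.3, 55.6 and 58.3 CPM in the low range and at 134, 152, 133 and 153 CPM in the S range, a log2 fold change of 1.23. The fold changes of the other linker histone genes were smaller, and whether they differ between genes was not tested. HIST1H1D had a log2 fold change of 1.17 ± 0.05, HIST1H1E of 0.82 ± 0.04 and HIST1H1C of 0.68 ± 0.05 (SE). HIST1H1E, the most counted of them, went from 98.0, 121, 60.4 and 59.0 CPM to 180, 207, 118 and 108 CPM, so its S-range values in libraries 3 and 4 reached down to the low-range value of library 2, although it rose in each library. With no block for the library, HIST1H1E (adjusted p = 0.105) and HIST1H1C (adjusted p = 0.0612) lost their calls.

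Of the 12 H3 genes tested, 8 were higher and none was lower in the S range by edgeR. HIST1H3D stood at 11.9, 14.3, 10.2 and 12.7 CPM in the low range and at 33.2, 35.7, 23.6 and 28.1 CPM in the S range, a log2 fold change of 1.25 ± 0.07 (SE, adjusted p = 1.65e-10). HIST1H3B had a log2 fold change of 1.01 ± 0.10. HIST1H3D overlaps HIST1H2AD on the same strand, so their reads cannot be fully told apart.

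The H2A and H2B genes moved in both directions. Of 14 H2A genes tested 11 were higher and 2 lower, and of 17 H2B genes 9 were higher and 5 lower. HIST2H2AC, the most counted H2A gene, stood at 48.2, 51.8, 29.8 and 28.4 CPM in the low range and at 95.1, 96.5, 63.0 and 54.4 CPM in the S range. It rose in every library, with a log2 fold change of 0.92 ± 0.04 (SE, adjusted p = 3.48e-12). HIST1H2AK and HIST1H2AB, H2A genes with means of 2.08 and 2.94 CPM in the low range, had log2 fold changes of 1.25 and 1.13. The median fold change of the H2B genes tested, 0.33 on the log2 scale, was the smallest of the 5 classes, and the H1 median, 1.17, was the largest.

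**Figure D2:**
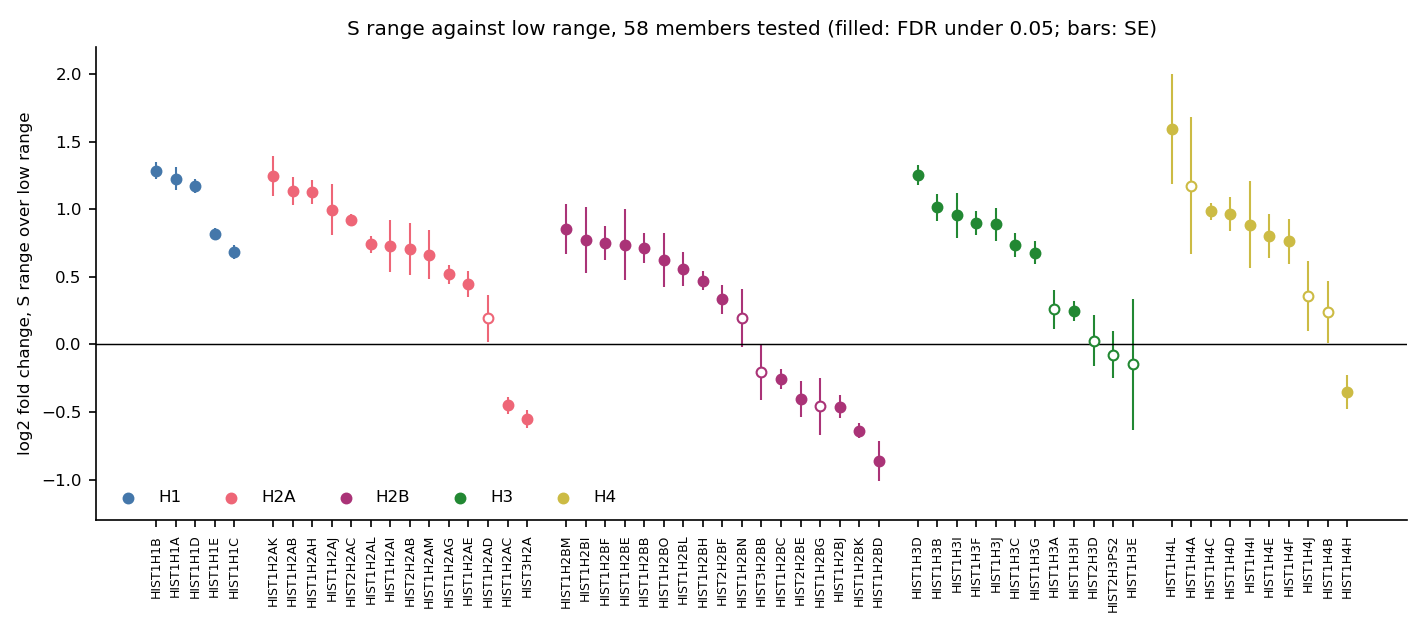
Log2 fold change of the S range against the low range for the members tested, with standard errors, grouped and coloured by histone class (filled points passed the test). The values run from -0.86 for HIST1H2BD to 1.59 for HIST1H4L, and the members called lower are H2A, H2B and H4 genes.

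The 8 members lower in the S range were 13.8% of those tested, near the 14.4% of all genes, so their number is no result about the members. Their direction is opposite to the one the name replication histone implies. They were the H2A genes HIST1H2AC and HIST3H2A, the H2B genes HIST1H2BD, HIST1H2BK, HIST1H2BJ, HIST2H2BE and HIST1H2BC, and the H4 gene HIST1H4H. HIST3H2A stood at 31.1, 32.2, 27.7 and 35.5 CPM in the low range and at 18.9, 21.4, 23.7 and 25.6 CPM in the S range. The groups did not overlap, and the log2 fold change was -0.55 ± 0.07 (SE, adjusted p = 2.64e-06). HIST1H2BK stood at 25.9, 28.5, 26.0 and 27.3 CPM in the low range and at 17.0, 18.4, 17.5 and 18.8 CPM in the S range, with a log2 fold change of -0.64 ± 0.06 (SE, adjusted p = 4.93e-08). Its 4 libraries lay closer together than those of any H1 gene tested, with an SD of 1.22 CPM in the low range and 0.821 CPM in the S range. HIST1H2BK overlaps HIST1H4I on the opposite strand, and the strand of counting is not given in the sources used here. Reads inside the overlap therefore cannot be told apart, and how many fell there was not counted. In RefSeq HIST1H2BK starts at 27146858 on the minus strand and HIST1H4I at 27139282 on the plus strand. HIST1H4I held 329 UMIs and HIST1H2BK 12424.

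HIST1H2AC was more variable. It stood at 37.2, 42.8, 35.7 and 33.6 CPM in the low range and at 29.8, 34.7, 27.3 and 21.6 CPM in the S range, lower in the S range of each library although the 34.7 CPM of library 2 lay above the low-range value of library 4. The log2 fold change was -0.45 ± 0.06 (SE, adjusted p = 1.98e-05). HIST1H2BD, at 3.15 to 5.10 CPM in the low range and 1.93 to 2.83 CPM in the S range, had the most negative log2 fold change, -0.86 ± 0.15 (SE). The remaining lower members had log2 fold changes of -0.46 for HIST1H2BJ, -0.40 for HIST2H2BE, -0.35 for HIST1H4H and -0.26 for HIST1H2BC, and HIST1H2BG, at -0.46, did not pass the test (adjusted p = 0.113). HIST1H2AC, HIST3H2A, HIST1H2BK and HIST1H2BD kept their call in all 15 alternative settings run. HIST1H2BJ, HIST2H2BE, HIST1H4H and HIST1H2BC lost theirs when 56 cells very rich in HIST1H2AC, described further down, were left out (adjusted p = 0.117, 0.117, 0.929 and 0.354). HIST2H2BE and HIST1H4H each lost their call in 9 of the 15 settings and HIST1H2BC in 6. With no block for the library 23 members were higher and 5 lower, and 5 were lower without library 4.

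H2A and H2B genes often sit head to head, and 10 such pairs were found among the 58 members with a RefSeq promoter, with 193 to 247 bases between their starts. The other 5 members were not searched, since the table gave them no strand. HIST1H2AH, among these 5, is the neighbour of HIST1H2BK, and they had log2 fold changes of 1.13 and -0.64, but they are not in the counts that follow. Both genes of a pair had the same sign of fold change in 7 pairs and opposite signs in 3. In 6 pairs both genes passed the test, with both higher in 3, both lower in 1 and opposite calls in 2. The lower pair was HIST1H2AC and HIST1H2BC. Of the opposite pairs, HIST2H2AC rose with a log2 fold change of 0.92 while HIST2H2BE fell by 0.40 on the log2 scale. HIST1H2AG rose by 0.52 while HIST1H2BJ fell by 0.46. As given above, HIST2H2BE lost its call in 9 of the 15 settings. Without the 56 cells very rich in HIST1H2AC, the calls of HIST1H2BC, HIST2H2BE and HIST1H2BJ were all lost. So the lower pair and the opposite pairs do not hold as calls without those cells. The fold changes of these 3 H2B genes stayed below 0 in all 15 settings. The H2A gene held 24.6 times the UMIs of the H2B gene in the HIST2H2AC pair and 1.46 times in the HIST1H2AG pair. The DNA between the starts of these 3 pairs is printed because 1 short interval serves genes that did or did not move together. They were chosen after their fold changes were seen, and are written 5′ to 3′ on the plus strand from RefSeq (GRCh38.p14), with the CCAAT box, the TATA letters TATAAA and the octamer ATTTGCAT on either strand in capitals.

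HIST1H2BC and HIST1H2AC, chr6:26123927-26124171: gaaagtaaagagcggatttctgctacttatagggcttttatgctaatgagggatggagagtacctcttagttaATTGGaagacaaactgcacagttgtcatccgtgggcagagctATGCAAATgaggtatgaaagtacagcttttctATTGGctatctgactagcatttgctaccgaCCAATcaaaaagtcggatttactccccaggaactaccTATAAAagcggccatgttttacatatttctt
HIST1H2BJ and HIST1H2AG, chr6:27132796-27133042: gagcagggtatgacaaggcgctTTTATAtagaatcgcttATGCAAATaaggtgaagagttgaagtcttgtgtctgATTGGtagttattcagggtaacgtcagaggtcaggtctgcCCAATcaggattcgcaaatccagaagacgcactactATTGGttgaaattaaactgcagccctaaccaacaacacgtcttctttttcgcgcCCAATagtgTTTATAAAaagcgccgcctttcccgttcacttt
HIST2H2BE and HIST2H2AC, chr1:149886683-149886917: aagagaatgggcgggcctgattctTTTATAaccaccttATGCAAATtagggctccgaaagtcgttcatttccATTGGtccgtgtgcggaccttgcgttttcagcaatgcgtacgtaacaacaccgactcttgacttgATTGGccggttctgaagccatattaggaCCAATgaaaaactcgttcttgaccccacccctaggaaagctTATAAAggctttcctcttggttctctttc

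In each of the 3 intervals the H2B gene starts at the left end and the H2A gene at the right end. Each held a single octamer, on the minus strand (printed ATGCAAAT). It lay nearer to the H2B start in the HIST1H2AG and HIST2H2AC intervals and near the middle of the HIST1H2AC interval. The HIST1H2AC interval held 3 CCAAT and 1 TATAAA, the HIST1H2AG interval 4 and 3, and the HIST2H2AC interval 3 and 2. By the sign of their fold changes, the pair that fell together and the pairs that parted had the same kinds of motif. A run of TTTATAAA was counted as TATAAA on both strands.

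**Figure D3:**
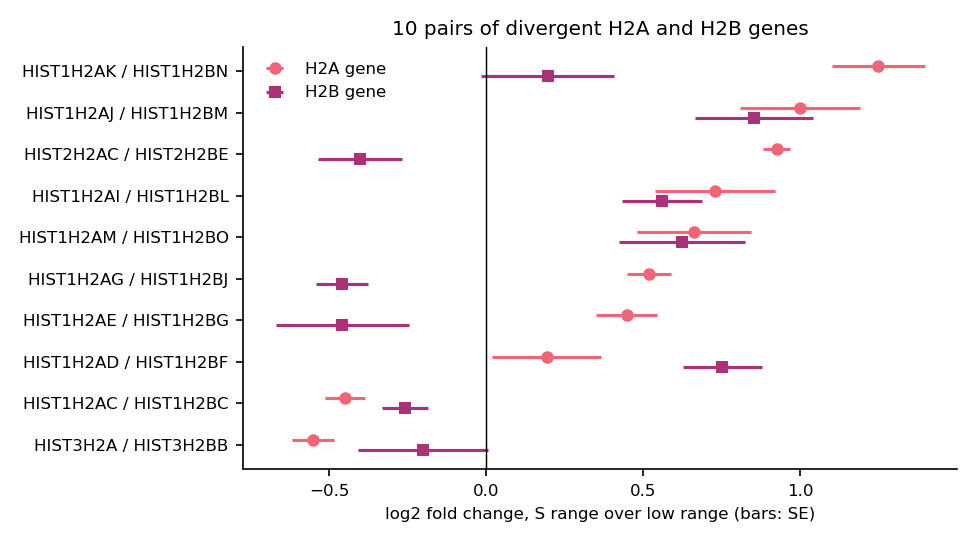
Log2 fold change of the S range against the low range for the H2A gene and the H2B gene of each of the 10 head-to-head pairs, with standard errors. In 7 pairs both points lie on the same side of 0, and in the HIST2H2AC and HIST1H2AG pairs called genes lie on opposite sides. The H2B calls of these opposite pairs were lost without the cells very rich in HIST1H2AC.

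The promoters of 58 of the 63 members were in RefSeq, and the 250 bases before the start were searched on both strands. CCAAT was in 51 of 58 (87.9%), against 33.0% of 27305 promoters of all genes, and TATAAA in 36 (62.1%), against 11.1%. ATTTGCAT was in 25 member promoters (43.1%), against 1.66% of all, and these were 11 of 15 H2A, 13 of 17 H2B and 1 of 10 H3 promoters. AAACACA, which is known from H1 promoters, was in 6 of 6 H1 promoters and in no other member, against 4.95% of all promoters. Among the called members with a promoter, ATTTGCAT was in 17 of 35 higher and 5 of 8 lower ones and CCAAT in 33 of 35 and 7 of 8. The H1 element is shown in the 150 bases before the start of HIST1H1B, the H1 gene with the largest fold change, on the minus strand of GRCh38.p14, with AAACACA and CCAAT in capitals.

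HIST1H1B, chr6:27867589-27867738: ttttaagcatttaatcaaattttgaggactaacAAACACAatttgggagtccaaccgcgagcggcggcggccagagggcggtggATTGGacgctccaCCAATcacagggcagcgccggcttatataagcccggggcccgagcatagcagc

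Transcript ends were read from the GENCODE 29 transcripts, a release that need not be the one the authors counted with. A stem-loop of 16 letters was found in 26 members, and in each of them the annotated transcript goes on past it. Of these members 12 were called higher in the S range, 6 lower and 5 neither, and 3 were not tested. The 26 thus hold 12 of the 39 higher and 6 of the 8 lower members. The stem-loop lies in the 3′ untranslated region, and for 32 members the annotation gave no base of it, so none could be found in those. Whether bases after the stem-loop go with the direction was not tested. The 26-base stretches below, with the stem-loop in capitals, show members of either call. They are from HIST1H2AC, with 1114 bases after the stem-loop, HIST3H2A, with 390, and HIST1H2BC, with 116, which were lower, and from HIST1H3G, with 1518, which was higher.

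HIST1H2AC: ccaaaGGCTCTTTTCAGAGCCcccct
HIST3H2A: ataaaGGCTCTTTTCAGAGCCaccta
HIST1H2BC: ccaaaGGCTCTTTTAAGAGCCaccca
HIST1H3G: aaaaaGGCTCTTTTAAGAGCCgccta

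Members tested were also split by the longest annotated 3′ untranslated region, at 200 bases, a length chosen after the values were seen. Of 20 members at or above it, 9 were higher and 7 lower in the S range, with a median log2 fold change of 0.024. Of 38 members below it, 30 were higher and 1, HIST1H2BK, was lower, with a median of 0.79. For 32 members, HIST1H2BK among them, the annotation gave no 3′ untranslated base. This split is therefore one of annotation, and the ends of the captured molecules were not measured. RefSeq places HIST1H2BK between 27138293 and 27146858 on chromosome 6, and its untranslated length there was not read. Members also share sequence, and 11 had at least 50% of their stretches of 50 bases in common with another transcript, whereas 36 shared none. Levels of the first kind, HIST2H4A and HIST2H4B among them, are uncertain.

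In the G2/M range most members were near their low-range level. All members together stood at 1520, 1412, 1099 and 1055 CPM in libraries 1 to 4, and 6 of 58 were higher and 10 lower than in the low range, where percent_called over all genes was 19.8 and 19.1. The 6 higher members changed little, from 0.12 on the log2 scale for HIST1H1E to 0.45 for HIST1H4D. HIST1H4C stood at 730, 588, 565 and 565 CPM, a log2 fold change of 0.09 ± 0.06 against the low range (SE, adjusted p = 0.253). Of the 8 members lower in the S range, 7 were lower here too and HIST1H4H was not called, with HIST1H2BD at -0.88, HIST1H2BK at -0.73, HIST3H2A at -0.69 and HIST1H2AC at -0.61 on the log2 scale. This shares its low-range sums with the comparison above. Without the cells of SBO05, 1 member was higher and 16 were lower, and HIST1H4C passed the test as lower, at -0.16 (adjusted p = 0.00123). The count of higher members was 2 with no block for the library, 1 without library 1 and 10 without library 4.

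Set against the G2/M range directly, the S range had 42 of 58 members higher and none lower by edgeR, where percent_called was 18.7 and 17.3. At an unadjusted p under 0.05 no member was lower, and DESeq2 also called none. With no block for the library 24 members were higher, and without the cells of SBO05 41 were higher and none lower. HIST1H4C differed by 0.89 and HIST1H1A by 1.21 on the log2 scale. Lower in both the S and the G2/M range than in the low range were 7 members. Of these, HIST1H2BK differed between the S and G2/M ranges by 0.09 ± 0.05 (SE, adjusted p = 0.209) and HIST3H2A by 0.14 ± 0.06 (adjusted p = 0.0914). HIST1H2AC differed by 0.16 ± 0.06 (adjusted p = 0.0489), HIST1H2BC by 0.19 ± 0.07 (adjusted p = 0.0342) and HIST2H2BE by 0.31 ± 0.13 (adjusted p = 0.0613). HIST1H2BJ differed by 0.04 and HIST1H2BD by 0.02, neither passing the test.

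Cells were also placed by both scores at once, as 8 sectors of the angle around the point where both scores are 0, a description added after the ranges had been seen. The members' total was 2087 ± 112 CPM (SD, n = 4 libraries) in the sector with a high S and a low G2/M score, 3254 ± 455 CPM where S was high and G2/M near 0, 3306 ± 829 CPM where both scores were high and 1474 ± 359 CPM where G2/M was high and S near 0. It was 872 ± 77.2 CPM where G2/M was high and S low, the smallest mean of the 8 sectors, and 1183 ± 98.5 CPM where both were low. So the total was highest where S scores were high and G2/M scores were not low, and its means for those sectors differed by less than the SD. HIST1H4C was also lowest where G2/M was high and S low, at 399 ± 48.9 CPM, and stood at 1640 ± 90.9 CPM where S was high and G2/M near 0 and at 1690 ± 334 CPM where both were high. HIST3H2A and HIST1H2BK instead had their highest mean where both scores were low, at 33.0 ± 5.16 and 27.4 ± 2.48 CPM. The sector with both scores high held the fewest cells, 423, and SBO05 gave 54.6% of its cells in libraries 1 and 2, against 10.0% where S was low and G2/M near 0. Without SBO05 the totals were 3055 CPM where S was high and G2/M near 0, 2866 CPM where both were high and 844 CPM where G2/M was high and S low, and HIST1H4C was at 1510 CPM where S was high and G2/M near 0 and at 1414 CPM where both were high, so the order of these sectors turned for both.

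**Figure D4:**
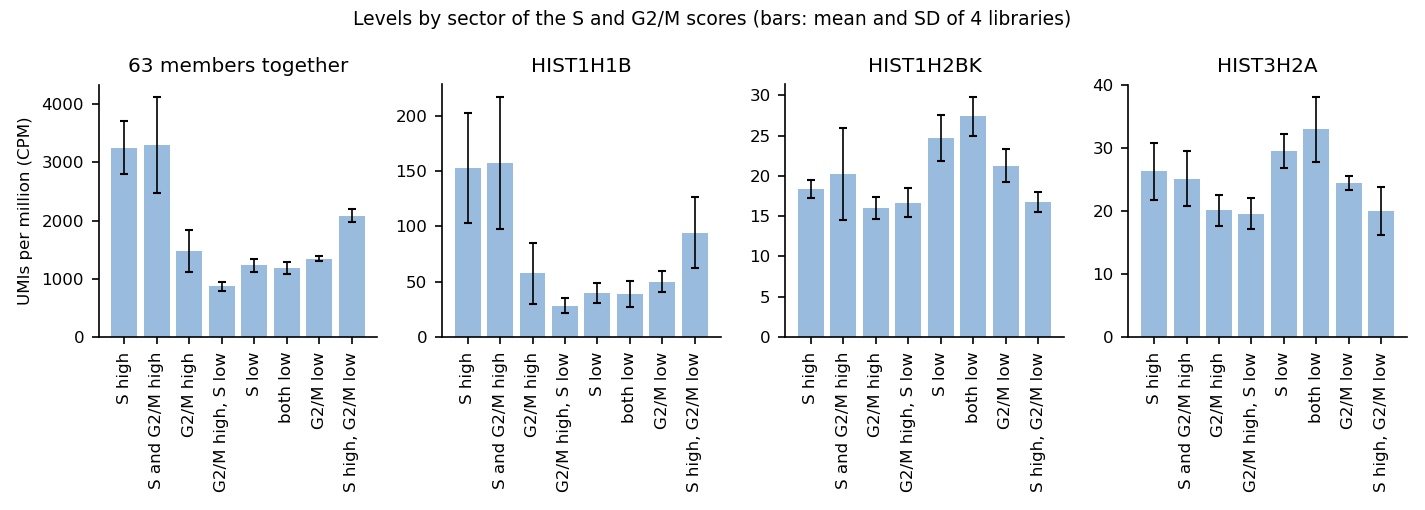
Level of the members' total and of single members in 8 sectors of the S and G2/M scores (CPM), as bars of the mean of the 4 libraries with the SD. The total is 3254 CPM where S is high and G2/M near 0 and 872 CPM where G2/M is high and S low, and HIST3H2A has its highest mean, 33.0 CPM, where both scores are low.

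The members' level differed between barcode populations. Over the 12 populations the total was lowest in SBO07, at 1354 CPM, and highest in SBO05, at 2438 CPM, with the median at 1583 CPM. HIST1H4C was lowest in SBO02, at 549 CPM, had a median of 736 CPM and was highest in SBO05, at 1181 CPM. SBO05 also held the highest level of each of HIST1H1A, HIST1H1B, HIST1H1C, HIST1H1D and HIST1H1E, of HIST2H2AC and of HIST1H3B, between 2.10 and 2.83 times the lowest population. Except for HIST1H1A, that lowest population was in the other pool, so these ratios also span the pools. HIST2H2AC stood at 76.0 CPM in SBO05, at 73.0 CPM in SBO01 of the same pool and at 36.2 to 46.1 CPM in SBO07 to SBO12. HIST1H3B, in contrast, stood at 43.2 CPM in SBO05, at 18.9 to 22.8 CPM elsewhere in its pool and at 15.3 to 22.9 CPM in the other. Other values moved with the level of SBO05. This population had 242 of its 1726 scored cells in the low range, the smallest share of the 12 populations, with 14.9% to 27.5% elsewhere. It also had a median of 20861.5 UMIs per cell, against 23181 to 35406. Their part in the level was not tested.

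Split by range, the populations lay close together in the low range, at 1082 to 1326 CPM, with SBO05 inside at 1171 CPM. In the S range they lay at 1812 to 3026 CPM with SBO05 highest, the next being SBO09 at 2431 CPM. In the G2/M range 11 populations lay at 975 to 1514 CPM and SBO05 at 2250 CPM. HIST1H4C showed the same in the G2/M range, with 1141 CPM in SBO05 and 445 to 659 CPM in the others. The G2/M-range cells of SBO05 had a median S score of -0.123, above the -0.284 to -0.177 of the other populations.

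HIST1H2AC, HIST3H2A, HIST1H2BK and HIST1H2BJ were ordered otherwise. Each was lowest in SBO01 and highest in SBO02, HIST1H2AC at 18.4 and 57.1 CPM, HIST3H2A at 13.7 and 35.4 CPM, HIST1H2BK at 13.4 and 29.7 CPM and HIST1H2BJ at 7.76 and 24.7 CPM. The libraries of SBO02 differed for HIST1H2BJ, at 15.6 and 35.4 CPM, and those of SBO11 at 27.3 and 9.95 CPM, so which population is highest for HIST1H2BJ rests on 1 library. SBO02 also held 9 of the 56 cells very rich in HIST1H2AC that are described further down, and SBO01 held none. The part of these cells in the order was not tested. SBO02, where they were highest, was the population with the lowest HIST1H4C.

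The direction from the low to the S range held in population after population. HIST1H4C, the H1 genes HIST1H1A, HIST1H1B, HIST1H1C, HIST1H1D and HIST1H1E, HIST2H2AC, HIST1H3B and HIST1H3D were higher in the S range in 12 of 12 populations, with HIST1H4C between 0.78 and 1.53 on the log2 scale. HIST1H2AC, HIST1H2BK, HIST1H2BD and HIST1H2BJ were lower in 12 of 12. HIST3H2A was lower in 11 and higher by 0.03 in SBO10. Populations of 1 pool share their libraries, so these are not 12 independent repeats. A term for the difference between libraries 3 and 4 and libraries 1 and 2 in the S against low comparison, added after the first results were seen, was called for 226 of 15707 genes and for none of the 58 members by edgeR, with 12 members at an unadjusted p under 0.05. No other tool was run for it.

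**Figure D5:**
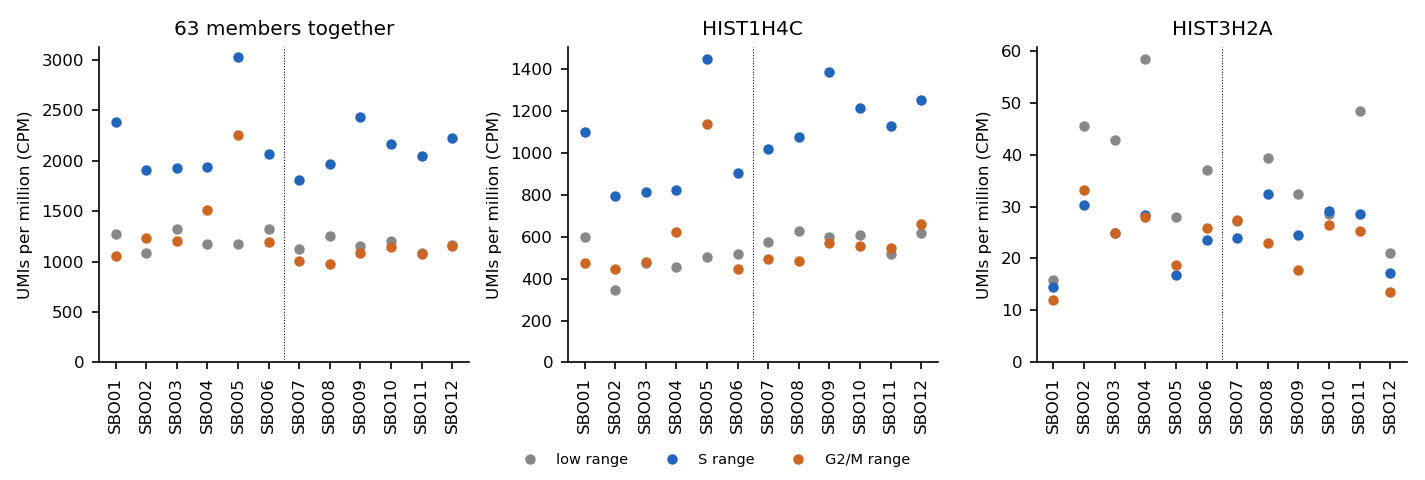
Level of the members' total and of single members in the 12 barcode populations, split into low, S and G2/M ranges (CPM), with a dotted line between the pools. SBO05 lies at 2250 CPM in the G2/M range, against 975 to 1514 CPM in the other populations, and at 1171 CPM in the low range, inside their spread.

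Per cell, the median number of members with a UMI was 9 in the low range, 13 in the S range and 9 in the G2/M range, and 5, 7 and 4 after thinning to 10000 UMIs. HIST1H4C had a UMI in 92.1% of low-range cells (exact 95% binomial interval 90.9 to 93.2), 96.9% of S-range cells (96.3 to 97.4) and 91.2% of G2/M-range cells (90.3 to 92.1). After thinning the shares were 77.8%, 90.1% and 75.8%. HIST1H1A, a linker histone gene, had a UMI in 36.7%, 59.3% and 38.2% of cells, and in 24.0%, 44.2% and 24.0% after thinning. For HIST3H2A the thinned shares were 22.7%, 16.6% and 15.8%. The intervals cover counting error only. These libraries hold no cell type that should lack the members, so the level of free RNA could not be read from one, and HIST1H1T, the testis H1 gene, had a UMI in 0.189%, 0.188% and 0.260% of cells at the same depths.

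The level of HIST1H4C was spread widely among cells of 1 range. In the S range its median was 26 UMIs per cell, against 5 in the low range and 6 in the G2/M range. Across the 10233 thinned cells HIST1H4C rose and fell with the H1 genes, with Pearson correlations of 0.61 for HIST1H1A, 0.58 for HIST1H1D, 0.54 for HIST1H1E, 0.52 for HIST1H1B and 0.36 for HIST1H1C. Its correlation with HIST1H2AC was 0.02, with HIST3H2A 0.01 and with HIST1H2BK -0.02. These are correlations over cells that share libraries and depth, and cells are not replicates.

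A small number of cells were very rich in HIST1H2AC. At a limit of 500 CPM, chosen after the values were seen, there were 56 such cells in 11 of the 12 populations and in all 4 libraries, with 17 in the low range (0.801% of its cells), 17 in the S range (0.399%) and 22 in the G2/M range (0.572%). Since HIST1H2AC chose them, only the other members describe them. Relative to other cells, HIST1H4H was 34.2 times as high in them, HIST1H2BJ 28.3 times, HIST1H2BC 15.4 times, HIST3H2A 13.8 times, HIST1H2BK 12.5 times and HIST1H1C 5.27 times. Members higher in the S range lay on both sides, with HIST1H1C, HIST1H3G (4.04 times) and HIST1H3B (2.37 times) above the other cells, and HIST1H4C at 0.953 and HIST1H1A at 0.183 of their level. These cells had a median of 27644 UMIs, against 29724 in the others, and a median mitochondrial share of 0.770%, against 1.56%.

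Depth was examined inside the low range, where each population's cells were cut into 3 groups of equal size by UMIs, called shallow, middle and deep. The members' total was 924, 965, 835 and 1085 CPM in the shallow group of libraries 1 to 4 and 1365, 1574, 1173 and 1457 CPM in the deep group. Of 41 members tested 8 were higher in the deep group and 2 lower, where percent_called over 12417 genes was 5.45 and 4.32. HIST1H4C stood at 276, 277, 347 and 518 CPM in the shallow group and at 685, 657, 604 and 792 CPM in the deep group, with no overlap, and its log2 fold change was 1.01 ± 0.10 (SE, adjusted p = 1.52e-07). The other higher members were the linker genes HIST1H1A (1.33), HIST1H1B (1.02), HIST1H1D (0.89) and HIST1H1E (0.48), the H2A genes HIST1H2AH (0.95) and HIST2H2AC (0.76), and HIST1H3D (0.58), on the log2 scale. HIST1H1C, the fifth linker gene tested, had a log2 fold change of -0.31 (adjusted p = 0.181). HIST1H2BK, at -0.36, and HIST1H3I, at -1.20, were lower. These 2 calls were lost without library 1, 2 or 4, where no member was lower. HIST1H3D lost its call without library 1 or 2. With no block for the library 4 members were higher and none lower, with 48 and 49 over all genes. The shallow groups also had lower G2/M scores, with medians of -0.413 to -0.301 against -0.236 to -0.189 in the deep groups, and in each library a higher median mitochondrial share, such as 1.88% against 1.30% in library 3. Their median S scores were lower than those of the deep groups in libraries 1 to 3, such as -0.208 against -0.165 in library 1, and higher in library 4, at -0.181 against -0.197. Their part in the difference was not tested.

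Other genes that serve histone supply were read from the same S against low fit. Of 18 genes for histone gene activation and mRNA 3′ processing, 8 were higher and 1 lower. Of the 15 outside the scores, 5 were higher and 1 lower, beside 15.5% and 14.4% over all genes. NPAT, the activator of histone genes, rose by 0.45 and ERI1, an exonuclease of histone mRNA ends, by 0.32 on the log2 scale. SLBP, which binds the stem-loop, rose by 0.53, CASP8AP2 by 0.59 and CCNE2, a cyclin of the G1/S transition, by 1.35, but these are in the S score and so were used to choose the cells. LSM10, a part of the U7 particle that helps to cut histone mRNA, fell by 0.21, and the cleavage factor CPSF2 had a fold change of 0.0059 that did not pass the test. Of 20 histone chaperones, 15 were higher and none was lower by edgeR, but NASP, MCM2, CHAF1B and HJURP among the higher ones are in the scores and helped to choose the cells. Of the 15 chaperones outside the scores, 11 were higher. ASF1B, an H3-H4 chaperone, rose by 0.83, and CHAF1B, a subunit of the assembly factor CAF-1, by 0.84. ASF1A, the paralog of ASF1B, was at 0.01 and SUPT6H at -0.02, and neither passed the test. Of 13 genes tested from a list of replacement histones and other histone genes outside the clusters, 3 were higher and 5 lower, beside the 15.5% and 14.4% over all genes. The list holds HIST4H4, which encodes the core histone H4 and is no replacement histone, and it had the largest fold change of the list, 0.36 (adjusted p = 0.0472), named after its value was seen. H2AFX, which marks DNA damage when phosphorylated, and H2AFY2, a macroH2A gene, each rose by 0.24. H1F0, a linker histone known from cells that stop dividing, fell by 0.26, and CENPA, the centromere H3 that is in the G2/M score, fell by 0.33. H3F3A and H3F3B, the H3.3 genes, fell by 0.10 and 0.11 on the log2 scale. With no block for the library LSM10 (adjusted p = 0.204), H1F0 (adjusted p = 0.194) and H2AFY2 (adjusted p = 0.0687) lost their calls.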

How the data were processed

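UMI counts per gene and cell were used as deposited by the authors. They came from 10x 5′ libraries, per the labels' protocols, and Cell Ranger 6.0.2, bcl2fastq 2.20.0.422, Seurat 4.1.0 and build hg38 are named in the submitters' processing notes. The sources used here give neither the annotation release nor the strand of counting. The 4 mRNA libraries were analysed, with sample barcode counts from the same matrices.

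A cell was kept from 1000 genes upward, with mitochondrial UMIs no more than 15%. Barcodes were assigned with HTODemux (Seurat 5.3.0, positive quantile 0.99), whose cells with 2 or more barcodes were left out as doublets, and no other doublet caller was run. The sums of the 3 ranges come from the same libraries, so the library was a replicate block in edgeR 4.0.16 (quasi-likelihood, filterByExpr, TMM, Benjamini-Hochberg over all genes, false discovery rate 0.05). The median UMIs per kept cell were 22198.5 to 38051, and the biological coefficient of variation over range sums was 2.94%. The fit was tested on simulated data first. DESeq2 1.42.0, thinning, other blocks, no TMM, no filter, other barcode rules and leaving out each library were alternatives.

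Members and lists were chosen with earlier results of these data known. Named were the 10 members with the most UMIs, the 8 largest and 6 smallest fold changes of S against low, and the 2 largest and 2 smallest of each list above 20 CPM; other names were added after their values were seen. Members were matched to RefSeq by Ensembl identifier (63 of 63).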

Additional observations from a re-analysis of the deposited data

Results flagged for a closer look

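Within each range, the 4 libraries were searched for 1 value far from the other 3, as a gap above Dixon's 95% critical value for 4 samples. Of 60 such groups, 3 were picked out, and chance picks out about 1 in 20. HIST1H4C in the G2/M range stood at 730 CPM in library 1, against 565 to 588 CPM in the others. HIST3H2A in the G2/M range stood at 19.3 CPM in library 2, against 20.6 to 20.7 CPM. HIST1H4L in the S range stood at 0.392 CPM in library 3, against 0.644 to 0.684 CPM.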

How the results depend on the processing

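The direction of HIST1H4C, of the 5 tested H1 genes, of HIST2H2AC and of HIST3H2A in S against low held under all 15 alternatives run. Over the fits that left out each library, 30 to 38 members were higher and 5 to 7 lower. Members lower in the S range numbered 4 without the cells rich in HIST1H2AC and 5 with sums per barcode population, with the population as block. With no replicate block, members higher in S against low numbered 23 and lower 5, those higher in G2/M against low 2, those higher in S against G2/M 24, and in the deep against the shallow group 4 were higher and 0 lower. For G2/M against low, 2 members were higher by DESeq2 and 2 with sums per population, 1 was higher and 16 lower without SBO05, and 1 to 10 were higher over the fits without a library. In that comparison HIST1H4C was at -0.16 without SBO05 and -0.0119 with sums per population, and at -0.0072 to 0.21 over the fits without a library. HIST1H1E was at -0.037 and HIST1H1B at -0.0058 without SBO05. The members lower in the deep group numbered 0 by DESeq2, 4 with no filter on low counts and 0 to 2 over the fits without a library. The cause of these shifts was not tested.

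Reversals in S against low were among genes near 0 that passed no test. CPSF2 was at -0.0021 by DESeq2, -0.011 with a shorter S list (SLBP, NASP, CASP8AP2 and CHAF1B left out), -0.0031 without SBO05, -0.018 with sums per population and -0.030 to 0.041 without a library. ASF1A was at -0.00088 with the shorter list, -0.012 with thinned cells, -0.018 with sums per population and -0.039 to 0.044 without a library. SUPT6H was at 0.025 without TMM, 0.032 with thinned cells, 0.018 with the top barcode rule and -0.042 to 0.016 without a library. The highest population total was 2334 CPM by the top barcode rule. Shares of cells with a HIST1H4C UMI were 77.8%, 90.1% and 75.8% after thinning.

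Over all genes, S against low had 2428 higher and 2256 lower, 3698 and 1538 without TMM (median shift 0.055), 610 and 508 with no block, 1434 higher by DESeq2, 1294 higher with thinned cells and 1590 higher without library 1. G2/M against low had 3110 and 3000, 1286 and 1152 with no block, 1966 higher by DESeq2 and 1748 higher with thinned cells. S against G2/M had 2937 and 2715, 897 and 964 with no block, 1861 and 1794 by DESeq2 and 1841 and 1752 with thinned cells. Deep against shallow had 677 and 537, 48 and 49 with no block, 437 and 209 by DESeq2, 396 and 356 without library 1 and 379 and 290 without library 2. Members of few UMIs per library, such as HIST1H4L and HIST1H4A, and the 5 members not tested are limited by depth.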
